A study of Mus musculus with 15 samples.

Results

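The comparison concerned forebrain of mice in the group called PLX3X_CD30 by its library names against forebrain of untreated mice, called NT, with 3 libraries in each group, or 6 of the 15 libraries of the series. Libraries were chosen by library name. All mice were wild type, and no strain, age or sex is given in the labels. The library names carry PLX at 3x with the tag CD30, while the titles of the same 3 libraries say only that the mice were treated with PLX. The labels spell out neither PLX nor CD0 and CD30, nor the dosing or the time between treatment and tissue collection. Whether each library is a different mouse is not stated, so a p-value here measures how these libraries scatter, be it biological or technical. The other groups set beside the comparison were PLX3X_CD0, whose titles do carry PLX 3x, and the group titled IR-BMT, with IR as its treatment label and named IR_BMT here, with 3 libraries each. The group PLX1X, titled PLX 1x, also with 3 libraries, entered the shared model and the plot of levels by library and is not compared here. The question was what still differed from untreated brain in the CD30 group.

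Microglia are the resident macrophages of the brain. Their survival depends on signalling through the CSF1 receptor, which binds the cytokines CSF1 and IL-34, and they are known by surface proteins such as the purine receptor P2RY12, the transmembrane protein TMEM119 and the lectin Siglec-H. When microglia are lost, the niche can be refilled by surviving microglia or by macrophages that derive from bone marrow, and the latter are known to keep lower levels of some microglial identity genes and higher levels of genes such as Ms4a7. Bulk tissue RNA reports all cells together, with neurons and macroglia giving most of it.

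Total counts ran from 19249641 (NT replicate 1) to 52308965 in the 6 libraries, and the CD30 libraries lay between 38094395 and 38993569. The forebrain label was checked against its markers. Neurod6, a transcription factor of forebrain excitatory neurons, ran from 37.2 to 75 CPM in the 6 libraries (counts scaled to the library total with TMM factors, the unit of every level below), while Hoxb3, Hoxb5 and Hoxa5, genes of the hindbrain, had 0 counts in all 6. Cerebellar transcripts were higher in CD30 replicate 2 than in the other 5 libraries: Cbln3 was 7.96 CPM there and 0.545 to 1.16 CPM elsewhere. Thalamic genes were high in NT replicate 1, where Prkcd was 86.1 CPM against 14.2 to 24.0 CPM in the other 5. Interferon-response, meningeal and red cell transcripts were high in NT replicate 2.

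Of 21780 genes tested, 1432 (6.57%) passed an adjusted p of 0.05 between CD30 and NT, 1032 higher (4.74%) and 400 lower (1.84%). Rises were many and small, with a median log2 fold change of 0.28 and quartiles of 0.23 and 0.36, and were in genes of high level, with a median of 90.8 CPM in NT against 7.97 CPM over all genes tested. Falls were fewer and larger, with a median log2 fold change of -0.44, and reached -3.84. Their median level in NT was 20.9 CPM, also above that of all genes tested. How far level decides which small changes pass was not tested. At least 2-fold, 90 genes were lower (0.413%) and 13 higher (0.0597%). Of the 90, 25 (27.8%) stood on the 9 lists of microglia, macrophage and myeloid signalling genes described below, Crybb1 and Trem2 among them. These lists hold 125 (0.574%) of all genes tested. The 13 that rose as far were genes of low level, none above 7.53 CPM in an NT library. Both counts depended on the libraries and on the fit. Without CD30 replicate 1, 2 or 3, respectively, 576, 507 and 474 genes were higher and 180, 151 and 134 lower, and when only the 6 libraries were fitted 208 were higher and 151 lower.

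**Figure D1:**
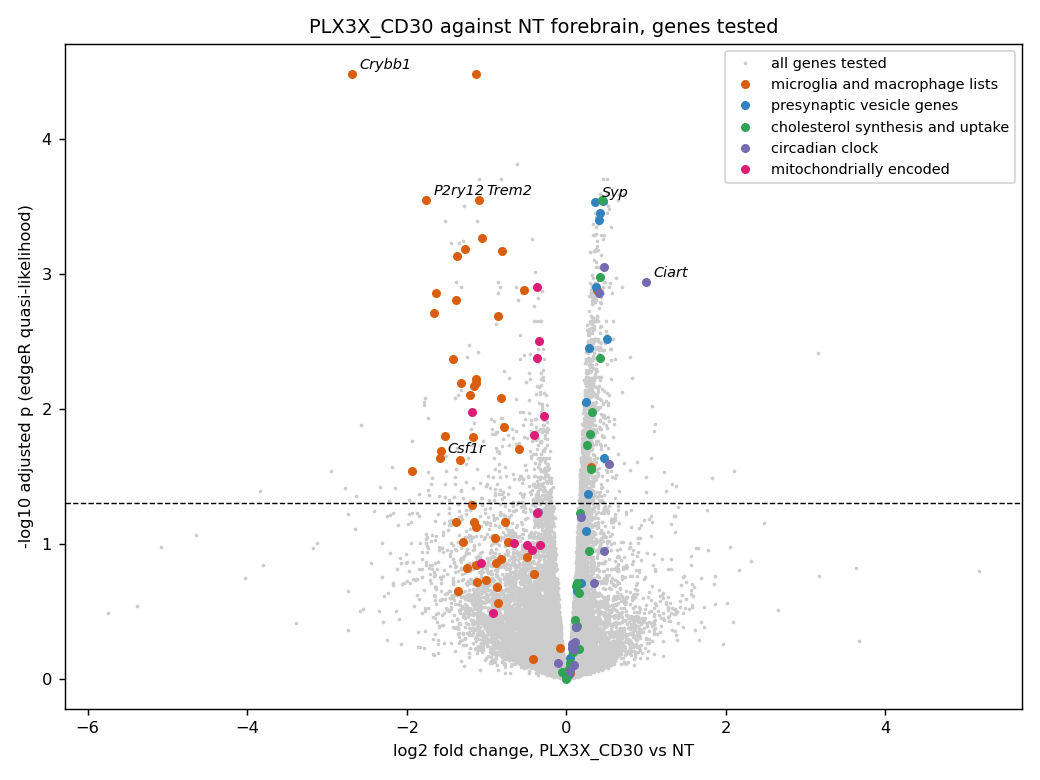
Log2 fold change in PLX3X_CD30 against NT (x axis) and -log10 of the adjusted p (y axis) of each gene tested, as grey points, with the genes of 8 lists coloured. The dashed line is an adjusted p of 0.05. Genes of the microglia and macrophage lists lie to the left, Crybb1 farthest among those coloured, and presynaptic and cholesterol genes lie in the narrow band of small rises to the right.

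The plot of fold change against adjusted p shows both kinds of change. The left side holds genes at a fraction of their untreated level, and the right side a dense band of genes with small rises.

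Microglial identity genes were the group farthest below untreated brain. Of 13 such genes, all tested, 10 were lower, beside 1.84% of all genes tested, and none higher. In all 13 each CD30 library lay below each NT library, a separation seen in 11.1% of all genes tested. The median log2 fold change was -1.37, against -0.02 over all genes. The median level was 38.5% of NT in CD30, with a range of 15.5% to 71.1%, and 7.36% in CD0. Fewer microglia and less RNA per microglial cell cannot be told apart in bulk tissue, here and in what follows.

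P2ry12 (chromosome 3, 59216272 to 59262871 on mm10), the receptor by which microglial processes sense ADP, was 40.9, 41.9 and 37.7 CPM in NT and 13.3, 11.8 and 10.5 CPM in CD30. The groups did not overlap, and every CD30 library held between 26.2% and 33.0% of the NT mean. The log2 fold change was -1.76 (SE 0.195), with an adjusted p of 0.000284 by edgeR's quasi-likelihood test. Tmem119, a microglial surface protein of unknown function, was 46.2 ± 1.96 CPM (SD, n = 3) in NT and 19.9 ± 0.855 CPM in CD30 (log2 fold change -1.21, SE 0.223, adjusted p 0.00796).

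Crybb1 stood lowest. This crystallin gene (chromosome 5, 112255815 to 112269585), known as a gene of mature microglia, was 5.43, 7.31 and 6.63 CPM in NT and 1.25, 0.6 and 1.16 CPM in CD30. Its log2 fold change was -2.69 (SE 0.249, adjusted p 3.31e-05), which left 15.5% of the NT level. Gpr34, a lysophospholipid receptor, was 10.8, 11.5 and 10.7 CPM in NT and 3.6, 3.42 and 3.47 CPM in CD30, with a fall of 1.65 on the log2 scale (adjusted p 0.00194). Fcrls, an Fc receptor-like scavenger gene, fell by 1.64 on the log2 scale (adjusted p 0.00138). Siglech fell by 1.38 (adjusted p 0.00155), and Slc2a5, the fructose transporter, by 1.37 (adjusted p 0.000738).

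Upk1b, a tetraspanin-like uroplakin gene, fell by 1.94 (adjusted p 0.0287). Its counts were low, 158 over all NT libraries and 44 over all CD30 libraries. The list's other members were closer to NT or did not pass. Golm1, a Golgi membrane protein, fell by 0.53 on the log2 scale (adjusted p 0.00131). Olfml3 was at 71.1% of NT (adjusted p 0.125) and P2ry13 at 38.9% (adjusted p 0.224). Sall1, the transcription factor that defines microglial fate, was 19.0, 18.2 and 39.1 CPM in NT and 12.8, 11.9 and 17.7 CPM in CD30 (adjusted p 0.277). P2ry13 passed in the fit on only the 6 libraries, with an adjusted p of 0.00136. The count of 10 lower genes was 9 or 10 with any 1 of the 6 libraries left out. It was 11 with DESeq2, 11 when only the 6 libraries were fitted, and 13 without a filter on low counts.

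**Figure D2:**
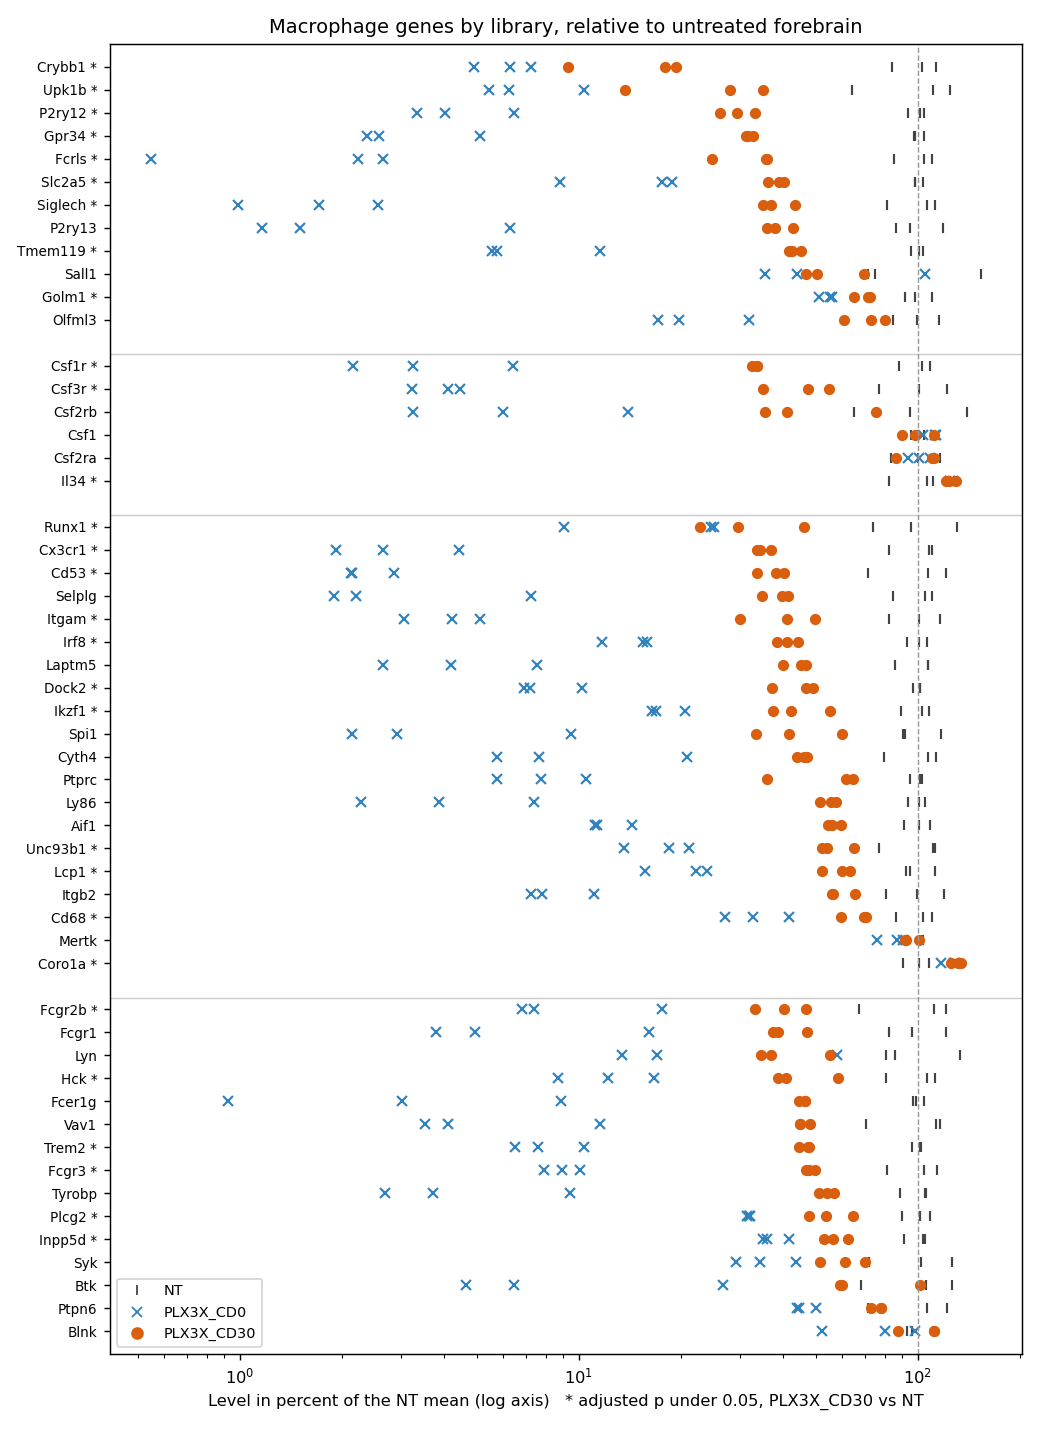
Level of genes of the microglia identity, CSF1 receptor, myeloid core and Fc receptor lists (rows, in blocks from top to bottom) in percent of its NT mean, on a log axis, for each NT, PLX3X_CD0 and PLX3X_CD30 library. The CD30 libraries lie between CD0 and NT for most genes, with Crybb1 lowest, and Il34 and Coro1a lie above NT.

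The plot in percent of NT shows the 3 CD30 libraries close together for most rows. It also shows that no CD30 library reached the NT range for P2ry12, Tmem119, Csf1r or Cx3cr1.

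Of 6 genes of the CSF1 receptor axis, 2 were lower and 1 higher, beside 1.84% and 4.74% of all genes tested. Csf1r (chromosome 18, 61100598 to 61132149), the receptor itself, was 146, 170 and 180 CPM in NT and 55.7, 53.8 and 55.7 CPM in CD30. The groups were far apart, and CD30 held 33.3% of the NT level. The log2 fold change was -1.59 (SE 0.345, adjusted p 0.0232), and the call was lost without CD30 replicate 1, 2 or 3, with an adjusted p of 0.0816 to 0.0899. Csf3r, the receptor for granulocyte colony-stimulating factor, fell by 1.14 on the log2 scale (adjusted p 0.00604). Il34, the CSF1R ligand made by neurons, was 52.3 ± 7.99 CPM in NT and 65.1 ± 2.22 CPM in CD30 (log2 fold change 0.31, adjusted p 0.0269). Its call was lost without CD30 replicate 1, 2 or 3 (adjusted p 0.0627 to 0.102). Csf1, the other ligand, did not pass.

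In the myeloid core, genes shared by microglia and other macrophages, 10 of 20 were lower and 1 higher. Of all genes tested, 1.84% were lower and 4.74% higher. The list's median log2 fold change was -1.14 and its median level 45.4% of NT. Cx3cr1, the fractalkine receptor, was 62.5, 81.6 and 83.3 CPM in NT and 28, 25.4 and 25.9 CPM in CD30 (log2 fold change -1.52, adjusted p 0.0159, and 0.0567 to 0.0698 without CD30 replicate 1, 2 or 3). Irf8, a transcription factor that microglia need, was 12.5 ± 0.83 CPM in NT and 5.16 ± 0.365 CPM in CD30 (log2 fold change -1.27 (SE 0.187), adjusted p 0.000653). Itgam, the integrin chain CD11b, fell by 1.32 on the log2 scale (adjusted p 0.00645). Cd53, a leukocyte tetraspanin, was 6.82, 11.6 and 10.2 CPM in NT and 3.65, 3.21 and 3.85 CPM in CD30 (log2 fold change -1.42, adjusted p 0.00424). Coro1a, an actin regulator of leukocytes that neurons also express, was the one higher member (log2 fold change 0.38, adjusted p 0.00131). Aif1, which encodes the microglial marker IBA1, was 6.87 ± 0.605 CPM in NT and 3.88 ± 0.176 CPM in CD30, without passing (adjusted p 0.131), and passed with DESeq2 (0.0353). The count of 10 was 5 without CD30 replicate 2 or 3, 18 without a filter on low counts, and 16 when only the 6 libraries were fitted.

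PU.1 (Spi1) is the transcription factor that sets the macrophage lineage. The letters GAGGAAGT, a core of its binding motif, were searched on both strands of RefSeq promoters (GRCm38.p6, 250 bases before to 50 after the start). They were found in 3.2% of 32851 promoters, in 2 of 22 promoters of the myeloid core list, in 3 of 15 of the Fc receptor, TREM2 and ITAM list, and in 0 of 11 of microglia identity. The promoters of Cd53 and Inpp5d, members with a match that were lower in CD30, are shown with the match in capitals. The Cd53 match is on the other strand (chr3:106790100-106790399, minus strand), and the Inpp5d promoter is chr1:87620062-87620361, plus strand.
Cd53: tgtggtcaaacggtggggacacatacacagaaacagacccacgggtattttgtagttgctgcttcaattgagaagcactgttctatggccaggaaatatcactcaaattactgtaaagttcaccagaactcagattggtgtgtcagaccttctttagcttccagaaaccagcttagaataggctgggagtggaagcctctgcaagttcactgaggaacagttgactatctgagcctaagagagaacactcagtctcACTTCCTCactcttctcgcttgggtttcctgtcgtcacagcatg
Inpp5d: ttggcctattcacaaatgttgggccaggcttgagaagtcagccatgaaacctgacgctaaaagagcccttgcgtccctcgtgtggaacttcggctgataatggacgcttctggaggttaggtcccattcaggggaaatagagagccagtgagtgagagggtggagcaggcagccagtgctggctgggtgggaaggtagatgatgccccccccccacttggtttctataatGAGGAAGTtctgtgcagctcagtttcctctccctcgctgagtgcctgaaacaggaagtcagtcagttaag

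Of 15 tested genes of Fc receptors, TREM2 and ITAM signalling, by which macrophages bind antibody and debris, 6 were lower and none higher. The share of lower genes was 1.84% over all genes tested, and the list's median log2 fold change was -1.06. Trem2, a lipid receptor of microglia, was 18.5, 19.7 and 19.6 CPM in NT and 9.24, 9.14 and 8.63 CPM in CD30 (log2 fold change -1.10, SE 0.141, adjusted p 0.000284). Fcgr3, a low-affinity IgG receptor, fell by 1.06 on the log2 scale (adjusted p 0.000543). Further down the pathway, the lipid phosphatase gene Inpp5d fell by 0.81 (adjusted p 0.000681) and the phospholipase gene Plcg2 by 0.86 (adjusted p 0.00204). All 4 kept their call with each library left out, and the list's count was 11 when only the 6 libraries were fitted and 12 without a filter on low counts.

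Of 20 tested Toll-like and chemokine receptors and cytokines, 8 were lower, beside 1.84% of all genes tested, and none higher. Tgfbr1, a receptor chain for TGF-beta, on which microglial identity depends, was 30.8 ± 3.21 CPM in NT and 17.5 ± 1.24 CPM in CD30 (log2 fold change -0.82, SE 0.095, adjusted p 0.000197). Cd14, a co-receptor for lipopolysaccharide, was 6.15, 3.81 and 2.95 CPM in NT and 1.75, 0.94 and 1.13 CPM in CD30 (log2 fold change -1.73). Its adjusted p of 0.0118 became 0.0635 to 0.0666 without CD30 replicate 2 or 3. The count of 8 was between 2, without CD30 replicate 2, and 6, without NT replicate 1. All 9 tested complement genes were below NT in the mean, with a median level of 56.3% of NT, and 1 of them, C5ar2, was lower by the test. The count was 3 when only the 6 libraries were fitted and 6 without a filter on low counts. C1qc, part of the initiator C1q, was 59.6 ± 9.52 CPM in NT and 33.5 ± 1.14 CPM in CD30, without passing (adjusted p 0.295, and 0.00541 when only the 6 libraries were fitted). C5ar2 was under 1 CPM in all 6 libraries, and its adjusted p of 0.0477 became 0.0674 to 0.197 without any of the NT libraries or CD30 replicate 2 or 3.

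Cathepsins and lysosomal genes, which many brain cells share, were close to NT, with a median level of 92.5% and 1 of 17 higher and 2 lower. Psap, the precursor of the saposins that help degrade sphingolipids, was 1760 ± 89.1 CPM in NT and 2010 ± 16.0 CPM in CD30 (log2 fold change 0.20, adjusted p 0.0201, and 0.0662 to 0.0804 without any CD30 library). Npc1, a cholesterol transporter of the lysosome, was the other lower gene. Ctsh, a cathepsin, was 14.4 ± 1.35 CPM in NT and 10.8 ± 0.239 CPM in CD30 (log2 fold change -0.41, adjusted p 0.0466), and lost its call without NT replicate 1 or 2 or any CD30 library (adjusted p 0.089 to 0.138), as did Npc1 (0.0636 to 0.118).

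Genes of other macrophages and of antigen presentation gave few calls. Of 15 tested genes known from bone marrow-derived macrophages in brain, 1 was higher and 1 lower, with a median log2 fold change of -0.24. Itga4, an integrin chain of blood-derived leukocytes, was 2.43, 3.44 and 2.97 CPM in NT and 5.04, 5.27 and 5.29 CPM in CD30, with no overlap (log2 fold change 0.80, SE 0.153, adjusted p 0.0041, and 0.0556 when only the 6 libraries were fitted). It was higher still in CD0, at 6.84 CPM (adjusted p 0.165 between CD30 and CD0). Lyz2, a lysozyme of macrophages whose reads can be shared with Lyz1, was 10.0, 18.1 and 14.0 CPM in NT and 16.4, 15.1 and 39.6 CPM in CD30 (log2 fold change 0.74, adjusted p 0.226, and 2.92e-07 without a filter on low counts). Hpgd, a prostaglandin-degrading enzyme, fell by 0.83 on the log2 scale (adjusted p 0.0397), a call lost without NT replicate 1 or 3 or any CD30 library (adjusted p 0.0667 to 0.118). Ms4a7 was under 1.1 CPM in all 6 libraries (adjusted p 0.951).

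CD30 replicate 3 was the highest library for several of these genes. Cd74, the invariant chain of MHC class II, was 5.0, 13.9 and 5.81 CPM in NT and 10.5, 7.41 and 23.8 CPM in CD30 (log2 fold change 0.74, adjusted p 0.37, and 1.98e-05 without a filter on low counts). The 8 MHC class II genes together summed to 27.4, 48.6 and 29.6 CPM in NT and to 36.8, 32.6 and 57.2 CPM in CD30. None of the 8 passed, and none of 10 MHC class I genes did. Among 10 border-associated macrophage genes, 1 was lower, the scavenger receptor gene Stab1 (adjusted p 0.0452), whose call was lost without NT replicate 2 or 3 or any CD30 library (adjusted p 0.0697 to 0.175). Mrc1, the mannose receptor of these cells, was 3.48 ± 1.41 CPM in NT and 2.36 ± 0.731 CPM in CD30 (adjusted p 0.346). The monocyte receptor gene Ccr2 was under 0.6 CPM in every library of the 6.

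**Figure D3:**
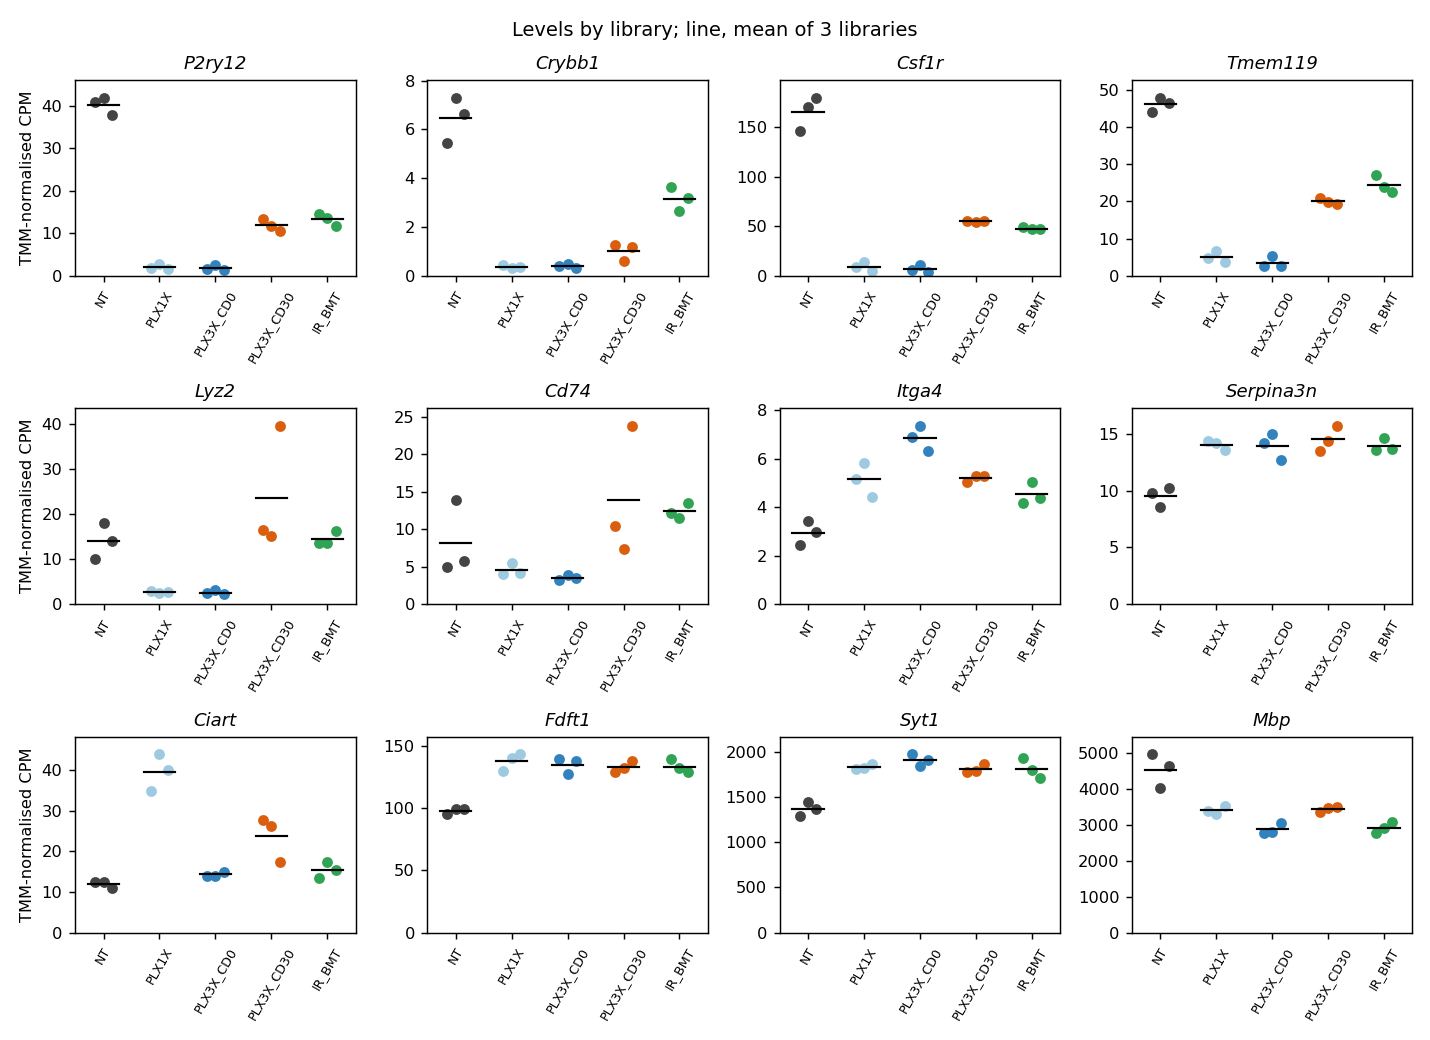
TMM-normalised CPM (y axes, from 0) of 12 genes in each library of the 5 groups (x axes), with a line at the mean of 3 libraries. P2ry12, Crybb1, Csf1r and Tmem119 in PLX3X_CD30 lie between the CD0 and NT libraries, and Lyz2 and Cd74 are highest in 1 of the 3 CD30 libraries.

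The plot of levels by library sets these genes beside the other groups. The spread of the 3 CD30 libraries was narrow for Csf1r and Itga4 and wide for Lyz2, Cd74 and Ciart.

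Against CD0, the test of the difference between the groups gave 828 genes (3.8%), 407 genes higher in CD30 (1.87%) and 421 lower (1.93%), and with an offset for gene length and GC content the split was 525 higher and 207 lower. The 828 calls became 384, 419 and 550 without CD30 replicate 1, 2 or 3, and 550, 563 and 453 without CD0 replicate 1, 2 or 3. Of those at least 2-fold apart, 188 were higher in CD30 (0.863%) and 2 lower (0.00918%). Microglial identity genes were higher in CD30 in 11 of 13 cases and myeloid core genes in 17 of 20. Siglech had the largest rise among genes of sufficient level, from 0.332 CPM in CD0 to 7.31 ± 0.851 CPM in CD30 (log2 difference 4.46, SE 0.295, adjusted p 3.69e-07). The rise of P2ry12 was 2.68 (adjusted p 1.04e-05) and that of Tmem119 2.50 (adjusted p 0.000132). That of Crybb1 was 1.34 (SE 0.282, adjusted p 0.00913). Lyz2 was 3.19 higher (adjusted p 0.000628) and Ms4a7 4.08 higher (adjusted p 0.00516). The Ms4a7 difference rests on low counts, 69 over all CD30 libraries together, and Lyz2 was highest in CD30 replicate 3. Genes of the engrafted macrophage list were higher in 6 of 15 cases. Choroid plexus genes were high in CD0 replicate 1, where the list summed to 3530 CPM against 343 and 375 CPM in CD0 replicates 2 and 3. None of these 10 genes passed between CD30 and CD0, and the part of this tissue in the other calls was not tested.

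Side by side with CD0 against NT, which uses the same NT libraries, the lists differed in how far they lay from untreated brain. In CD0, 12 of 13 microglial identity genes and 19 of 20 myeloid core genes were below NT (of all genes tested, 4732 or 21.7% passed, and 2075 or 9.53% were lower). The median log2 fold changes in CD0 were -3.72 and -3.33, against -1.37 and -1.14 in CD30. Engrafted macrophage genes had a median of -1.81 in CD0 and -0.24 in CD30. Genes lower in CD30 than in CD0 had smaller differences. Lama5, a laminin chain of basement membranes, was 4.19 ± 0.739 CPM in NT, 8.28 CPM in CD0 and 4.7 ± 0.245 CPM in CD30 (log2 difference to CD0 -0.82, adjusted p 0.00218). Fbn1, the extracellular matrix protein fibrillin, was 4.23 CPM in NT, 8.66 CPM in CD0 and 4.45 CPM in CD30 (log2 difference to CD0 -0.96, adjusted p 0.00657, and 0.054 without CD30 replicate 2).

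Against the IR_BMT group, 3597 genes passed (16.5%), of which 1935 genes were higher in CD30 (8.88%) and 1662 lower (7.63%). Of the 13 microglial identity genes, 2 differed, both lower in CD30. Crybb1 was 1.0 ± 0.352 CPM in CD30 and 3.17 CPM in IR_BMT, which is 15.5% and 49.0% of NT (log2 difference -1.65, adjusted p 0.000295). Fcrls was at 32.2% of NT in CD30 and 66.0% in IR_BMT (log2 difference -1.04, adjusted p 0.00852). P2ry12 was at 29.5% and 33.1% of NT, a log2 difference of -0.17 (SE 0.195, adjusted p 0.633). With the length and GC offset the number of genes called between these groups was 1247 in all, and it was 2053 without CD30 replicate 2, 1975 without IR_BMT replicate 2 and 2123 without IR_BMT replicate 3. Choroid plexus genes summed to 1290 CPM in IR_BMT replicate 1, against 366 and 343 CPM in IR_BMT replicates 2 and 3.

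**Figure D4:**
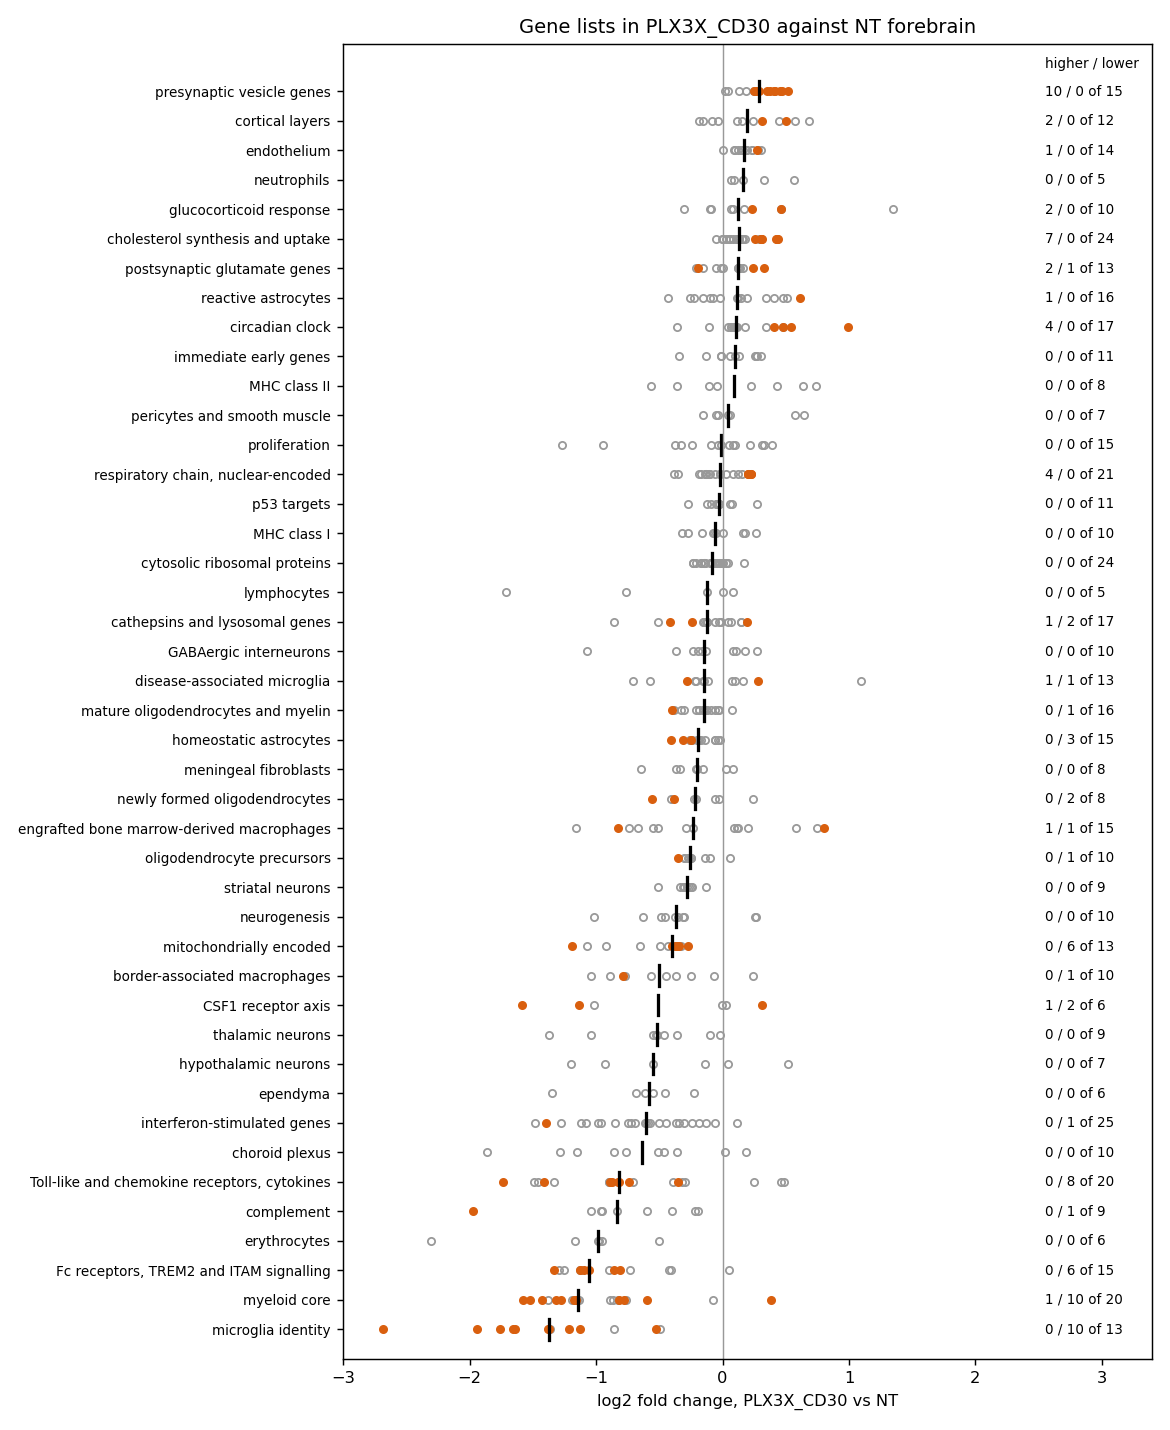
Log2 fold change in PLX3X_CD30 against NT (x axis) of each tested member of the gene lists with at least 5 tested members (rows, ordered by median). Filled points passed an adjusted p of 0.05, bars are medians, and the numbers on the right count the members higher and lower. Microglia identity has the lowest median and presynaptic vesicle genes the highest.

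The plot of all gene lists places the microglia identity, myeloid core and Fc receptor lists lowest, with medians of -1.37, -1.14 and -1.06. Red cell genes (-0.98) come next, below complement (-0.83) and Toll-like (-0.82) genes. Choroid plexus (-0.64), interferon (-0.61) and ependymal (-0.58) genes lie below the CSF1 receptor axis (-0.51) and border-associated macrophage (-0.50) lists. Presynaptic, cholesterol and clock genes have medians above 0, of 0.29, 0.13 and 0.10, and striatal and thalamic genes have medians below 0 and no filled point.

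Presynaptic vesicle genes were higher in 10 of 15 cases, with none lower, beside 4.74% of all genes higher. In 11 of the 15 every CD30 library lay above every NT library, as in 13.3% of all genes tested. Their median log2 fold change was 0.29, which is a level of 122% of NT. Syt1, the calcium sensor of vesicle release, was 1290, 1440 and 1370 CPM in NT and 1780, 1790 and 1870 CPM in CD30 (log2 fold change 0.41, SE 0.056, adjusted p 0.0004). Syp, the vesicle protein synaptophysin, was 695 ± 10.6 CPM in NT and 888 ± 23.0 CPM in CD30 (log2 fold change 0.35, adjusted p 0.000294). The vesicular glutamate transporter gene Slc17a7 rose by 0.51 (adjusted p 0.00303), and Syngr1, a vesicle protein related to synaptophysin, rose by 0.41 (adjusted p 0.000355). Syt1, Syp and Syngr1 did not overlap between the groups.

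These 3 genes also kept their call with any 1 library left out, and the count of 10 was 7 at the lowest, without CD30 replicate 3. CD0 had 10 of 15 higher as well (12.2% of genes tested), with a median of 0.34. Among 13 postsynaptic glutamate genes, 2 were higher and 1 lower, beside 4.74% and 1.84% of all genes tested. The other higher gene was Gria3, an AMPA receptor subunit, whose call was lost without NT replicate 1 or 3 or any CD30 library (adjusted p 0.0613 to 0.153). Grin1, the obligate NMDA receptor subunit, was 287 ± 9.97 CPM in NT and 361 ± 5.31 CPM in CD30 (log2 fold change 0.33, adjusted p 0.000515). Dlg4, the scaffold PSD-95, was 0.19 lower on the log2 scale (adjusted p 0.0495), a call lost without any 1 of the 6 libraries (adjusted p 0.0528 to 0.248). None of 10 GABAergic interneuron genes and none of 11 immediate early genes passed.

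Of 24 genes of cholesterol synthesis and uptake, 7 were higher and none lower, beside 4.74% of all genes higher. The median log2 fold change was 0.13. In CD0, 14 of the 24 were higher than NT (12.2% of genes tested), with a median of 0.24. Fdft1, squalene synthase, was 95, 99.1 and 99.5 CPM in NT and 129, 132 and 138 CPM in CD30 (log2 fold change 0.44, SE 0.056, adjusted p 0.000284). Sqle, squalene epoxidase, was 83.3 ± 4.9 CPM in NT and 103 ± 2.31 CPM in CD30 (log2 fold change 0.32, adjusted p 0.0105, and 0.0501 without CD30 replicate 3). Hmgcs1, an enzyme early in the pathway, was 184, 172 and 160 CPM in NT and 207, 215 and 216 CPM in CD30 (log2 fold change 0.31, SE 0.081, adjusted p 0.0279). For all 3 of these genes, and for 11 of the 24 in all, every CD30 library lay above every NT library, as in 13.3% of all genes tested. The count of 7 was 3 without CD30 replicate 3 and 4 when only the 6 libraries were fitted.

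Sterol-responsive genes are known for an element bound by SREBP. The letters TCACNCCAC, searched on both strands, stood in 1.24% of all promoters and in 1 of 20 of this list, that of Hmgcs1 (chr13:119690101-119690400, plus strand), shown with the match in capitals.
Hmgcs1: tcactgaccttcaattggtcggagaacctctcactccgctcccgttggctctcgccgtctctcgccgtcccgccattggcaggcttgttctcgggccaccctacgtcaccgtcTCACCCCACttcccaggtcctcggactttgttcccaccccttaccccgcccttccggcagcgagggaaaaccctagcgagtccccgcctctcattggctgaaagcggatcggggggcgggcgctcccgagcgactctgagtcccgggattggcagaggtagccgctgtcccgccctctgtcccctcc

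Of 17 clock genes, 4 were higher and none lower, beside 4.74% of all genes higher, with a median log2 fold change of 0.10. In CD0, 4 of the 17 were higher than NT (12.2% of genes tested) and 1 was lower, with a median of 0.02. Ciart (chromosome 3, 95878503 to 95882251), a repressor within the clock, was 12.6, 12.4 and 11 CPM in NT and 27.7, 26.4 and 17.3 CPM in CD30. CD30 replicate 3 was the lowest of its group and still above all NT libraries. The log2 fold change was 0.99 (SE 0.147, adjusted p 0.00115), and CD30 was also 0.73 above CD0 (adjusted p 0.00704). Nr1d1, the nuclear receptor REV-ERB alpha, was 102 ± 3.05 CPM in NT and 142 ± 7.05 CPM in CD30 (log2 fold change 0.48, adjusted p 0.000882), and Nr1d2, its relative, rose by 0.40 (adjusted p 0.00138).

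Per2, a core repressor, was 45.4, 45.1 and 46.5 CPM in NT and 71.6, 76.7 and 50.9 CPM in CD30. Its adjusted p of 0.0255 became 0.0596 to 0.0952 without any 1 of the NT libraries or CD30 replicate 1 or 2. Arntl, the clock's activator, was 107% of NT (adjusted p 0.6). The labels used here give no time of day of collection, so a difference in that time and a difference by treatment cannot be told apart. Of 10 glucocorticoid-responsive genes, 2 were higher, beside 4.74% of all genes tested. They were Zbtb16 (log2 fold change 0.46, adjusted p 0.0127) and Tsc22d3 (0.23, adjusted p 0.0228). The Zbtb16 call was lost without CD30 replicate 1 (adjusted p 0.0686), and the Tsc22d3 call without NT replicate 2 or 3 or CD30 replicate 1 or 3 (adjusted p 0.0507 to 0.116).

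The clock's activators bind the E-box CACGTG, a sequence that reads the same on both strands. It stood in 7.15% of all promoters and in 6 of 20 of this list, from 5 of 15 matched genes. The promoter of Ciart (chr3:95882179-95882478, minus strand), shown for its gene's rise, holds 3, in capitals.
Ciart: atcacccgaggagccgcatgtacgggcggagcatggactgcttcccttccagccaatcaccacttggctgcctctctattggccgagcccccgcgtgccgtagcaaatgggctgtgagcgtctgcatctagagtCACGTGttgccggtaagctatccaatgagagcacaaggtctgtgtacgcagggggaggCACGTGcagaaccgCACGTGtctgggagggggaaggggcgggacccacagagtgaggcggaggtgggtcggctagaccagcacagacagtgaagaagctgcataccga

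Oligodendrocyte and astrocyte genes lay slightly below NT in the mean, in 15 of 16 mature oligodendrocyte genes, 9 of 10 precursor genes and 15 of 15 homeostatic astrocyte genes, though few passed. Over all genes tested, 11669 of 21780 were below NT in the mean, and of the reactive astrocyte genes 7 of 16 were. Mbp, the myelin basic protein, was 4950, 4010 and 4630 CPM in NT and 3340, 3460 and 3500 CPM in CD30, with no overlap (log2 fold change -0.40, SE 0.068, adjusted p 0.00173). It was the 1 lower gene of 16 for mature oligodendrocytes and myelin, whose median was -0.15, and 3 were lower without NT replicate 2. Bcas1, a gene of newly formed oligodendrocytes, was 181, 135 and 136 CPM in NT and 106, 104 and 97.8 CPM in CD30 (log2 fold change -0.56, adjusted p 0.00139). The other lower gene of these 8, Enpp6, lost its call without NT replicate 1 or 2 or any CD30 library (adjusted p 0.056 to 0.188). Olig1, a transcription factor of the lineage, fell by 0.36 on the log2 scale (adjusted p 0.00447, and 0.0557 when only the 6 libraries were fitted), the 1 lower of 10 precursor genes.

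Gja1, the astrocyte gap junction protein connexin 43, was 372, 396 and 390 CPM in NT and 315, 302 and 315 CPM in CD30 (log2 fold change -0.31, SE 0.055, adjusted p 0.00223). It was 1 of 3 lower among 15 homeostatic astrocyte genes, beside 1.84% of all genes tested. The count of 3 was 1 without any CD30 library and 5 without NT replicate 2. The other lower genes were the potassium channel gene Kcnj10 (adjusted p 0.0514 to 0.127 without NT replicate 1 or 3 or any CD30 library) and S100b (0.0618 to 0.145 without NT replicate 1 or any CD30 library). In the list of 16 reactive astrocyte genes, Serpina3n, a secreted protease inhibitor, was the 1 higher. It was 9.82, 8.52 and 10.2 CPM in NT and 13.5, 14.4 and 15.7 CPM in CD30 (log2 fold change 0.62, SE 0.096, adjusted p 0.00108). Gfap, the intermediate filament of reactive astrocytes, was 221 ± 59.3 CPM in NT and 252 ± 16.4 CPM in CD30 (adjusted p 0.679).

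Apoe, a lipid carrier made by astrocytes and by disease-associated microglia, was 2300 ± 205 CPM in NT and 1990 ± 164 CPM in CD30 (adjusted p 0.147). Of the 13 genes of disease-associated microglia, 1 was higher and 1 lower. Ank, a pyrophosphate transporter gene, was 0.28 higher on the log2 scale (adjusted p 0.00816, and 0.0583 when only the 6 libraries were fitted). Cd9, a tetraspanin, fell by 0.28 (adjusted p 0.0325), and its call was lost without NT replicate 1 or CD30 replicate 1 or 3 (adjusted p 0.105 to 0.146).

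Of 13 protein-coding genes of the mitochondrial genome, 6 were lower, beside 1.84% of all genes tested, and none was higher. For 8 of the 13 each CD30 library was below each NT library, as in 11.1% of all genes tested. All 13 were below NT in the mean, with a median level of 75.7% of NT. In CD0, 10 of the 13 were lower than NT (9.53% of genes tested), with a median level of 70.5% of NT. The median level in IR_BMT was 61.0% of NT. mt-Cytb, the cytochrome b of complex III, was 1530, 1580 and 1530 CPM in NT and 1170, 1260 and 1210 CPM in CD30 (log2 fold change -0.35, SE 0.063, adjusted p 0.00312). mt-Nd4, a subunit of complex I, was 448 ± 13.6 CPM in NT and 348 ± 24.4 CPM in CD30 (log2 fold change -0.36, adjusted p 0.00125). These calls depended on the scaling: with the length and GC offset only 1 of the 13 was lower, and the adjusted p was 0.332 for mt-Cytb and 0.784 for mt-Nd4. Without NT replicate 3, 10 were lower, with DESeq2 11 and without a filter on low counts 12. Of 21 nuclear-encoded respiratory chain genes, 4 were higher, beside 4.74% of all genes tested. They were Ndufs1 of complex I (log2 fold change 0.23, adjusted p 0.00608), Ndufv1, Uqcrc2 and Atp5a1. The median log2 fold change of the 21 was -0.02, as over all genes tested, and 12 lay below NT in the mean. When only the 6 libraries were fitted none of the 21 passed, and Ndufs1 had an adjusted p of 0.0907. Without CD30 replicate 1, Ndufs1 was the 1 that passed.

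**Figure D5:**
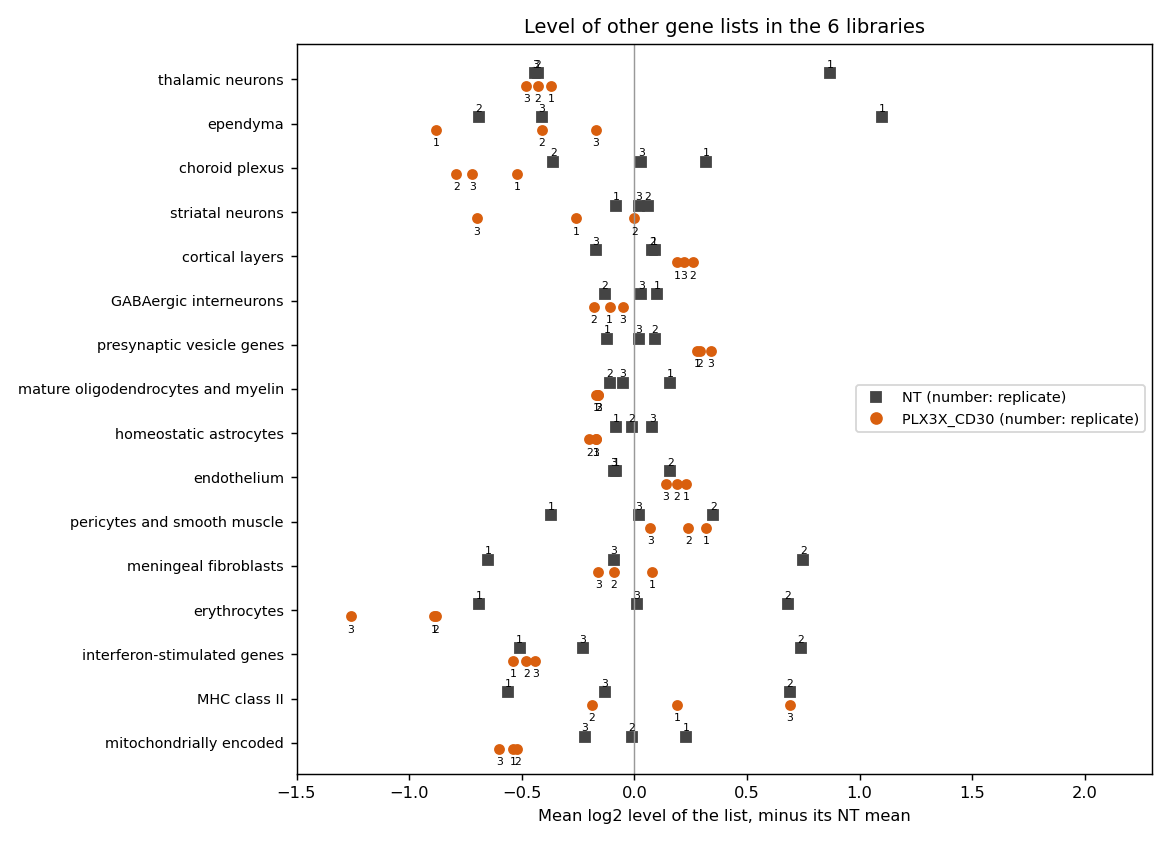
Mean log2 level of the tested genes of 16 lists (rows) in each NT and PLX3X_CD30 library, minus the NT mean of the list (x axis), with replicate numbers beside the points. NT replicate 1 stands far right for thalamic and ependymal genes and NT replicate 2 for interferon, meningeal and red cell genes. Presynaptic and mitochondrially encoded lists separate the groups. The cortical layer, homeostatic astrocyte, mature oligodendrocyte, choroid plexus and red cell lists also do not overlap between them.

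Lists of other cell types and regions gave few or no calls, and the plot of list levels by library shows which libraries moved with them. Thalamic genes had a median log2 fold change of -0.52 and none of 9 passed. Their mean log2 level relative to NT was 0.87 in NT replicate 1, -0.43 and -0.44 in the other NT libraries and -0.37 to -0.48 in CD30. Striatal genes were lowest in CD30 replicate 3, at -0.70, and none of 9 passed. Of 25 interferon-stimulated genes, 24 were below NT in the mean, and NT replicate 2 was the highest library, at 0.74, against -0.51 and -0.23 in NT replicates 1 and 3 and -0.54 to -0.44 in CD30. Without a filter on low counts, 11 of the 25 were lower. Their 1 call, Trim30a, a gene of the TRIM family, was lost without NT replicate 2 or any CD30 library (adjusted p 0.0779 to 0.165). The part of region and blood content in the other results was not tested.

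Among the remaining lists, proliferation, neurogenesis, p53 target, pericyte, meningeal, choroid plexus, ependymal, hypothalamic, hindbrain, lymphocyte, neutrophil, monocyte, red cell and ribosomal protein genes had no call in CD30 against NT. In the endothelial list, the glucose transporter gene Slc2a1 was the 1 higher of 14 (log2 fold change 0.27, adjusted p 0.0115, and 0.0555 without CD30 replicate 1). Cortical layer genes included 2 of 12 that were higher, Tbr1 and Rasgrf2, with adjusted p of 0.029 and 0.0352. Both calls were lost without NT replicate 1 or 3 or any CD30 library (adjusted p 0.0542 to 0.116).

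The largest rises among genes of sufficient level were in genes outside the lists, apart from Ciart and Itga4. Xdh, xanthine dehydrogenase of purine breakdown, was 5.77, 7.53 and 6.34 CPM in NT and 12.5, 12.7 and 16.4 CPM in CD30 (log2 fold change 1.07, SE 0.218, adjusted p 0.0096). CD0 held 10.6 CPM of it. Doc2a, a calcium sensor of spontaneous vesicle release, was 15.9 ± 1.12 CPM in NT and 26.2 ± 1.96 CPM in CD30 (log2 fold change 0.73, adjusted p 0.000255). Sv2b, a synaptic vesicle glycoprotein, was 434, 535 and 408 CPM in NT and 698, 723 and 808 CPM in CD30 (log2 fold change 0.69, adjusted p 0.00125).

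Susd2, a membrane protein, rose by 0.66 on the log2 scale (adjusted p 0.000256), and Prss35, a serine protease-like gene, by 0.82 (adjusted p 0.00596, and 0.0599 when only the 6 libraries were fitted). Zfp296, a zinc finger gene, was 1.41 ± 0.151 CPM in NT and 3.0 ± 0.594 CPM in CD30 (log2 fold change 1.1, adjusted p 0.0147), a call lost without CD30 replicate 1 or 2 (adjusted p 0.061 to 0.0671). C1ra, a complement protease gene, was 1.35 ± 0.183 CPM in NT and 2.85 ± 0.375 CPM in CD30 (log2 fold change 1.06, adjusted p 0.0231), and was lost without NT replicate 1 or CD30 replicate 1 or 3 (adjusted p 0.0539 to 0.0814). On the other side, genes outside the lists with large falls were Abcc3, an organic anion transporter (log2 fold change -1.52, adjusted p 0.000408), Irf5, a transcription factor of inflammatory macrophages (-1.45, adjusted p 0.000588), and Nfam1, an ITAM-bearing receptor of leukocytes (-1.39, adjusted p 0.00115).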

How the data were processed

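Bulk RNA from frozen forebrain was measured in 15 libraries of 5 groups, formed from the library names, with replicate numbers from the titles. The authors deposited raw counts per gene. DRAGEN, DESeq2 and mm10 are named in the submitters' processing notes, and their versions, the annotation and the strand setting: not given in the sources used here. Of 55774 rows, 287 repeated an identifier with identical counts and were removed, leaving 55487 Ensembl identifiers, of which 55141 had a position in GENCODE mouse release 21. Library totals were 19249641 to 54801136 counts. Even numbers made up 70.6% to 74.7% of all counts from 1 to 4, so 1 fragment may often have been counted as more than 1, and precision was taken from the spread between libraries. The SMARTer Ultra Low kit, named in the labels' protocols, is not known to keep strand. Reads of a gene and its overlapping or antisense partner are therefore mixed, and near-identical copies (Lyz1 and Lyz2, haemoglobin, H2) are uncertain.

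The counts were tested with edgeR (4.0.16, on R 4.3.3) with TMM scaling. The filterByExpr filter by group left 21780 genes, and a single model gave each of the 5 groups its mean. Robust quasi-likelihood F-tests were adjusted by Benjamini-Hochberg with a threshold of 0.05. The common biological coefficient of variation was 12.1%, and each SE is the absolute log2 fold change divided by the square root of F. The method was tested on simulated data, and no replicate pair agreed within sampling noise. The 45 lists hold 577 genes, of which 544 were tested, and are described by counts and medians. The groups compared, the lists and the naming rule were chosen with earlier results of these data known. The rule named the 12 largest rises and falls against NT (6 against CD0) that passed, had a mean log2 CPM of at least 1 and did not overlap between groups. It also named up to 4 members per list by adjusted p and 13 fixed genes. Some genes it gives are not reported here. Neurod6, Cbln3, Prkcd, Hox genes, Golm1, Upk1b, Olfml3, Sall1, Csf1, Ccr2, Arntl and Hmgcs1 were named outside it, after their values were seen.

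Other settings were RLE size factors, DESeq2 1.42.0, no filter (40275 genes), a stricter filter (1 CPM in 3 libraries), a replicate block, a loess offset for length and GC content (span 0.3), a fit on only the libraries compared, and each library left out. A fit on 9 libraries (NT, PLX3X_CD30 and IR_BMT) was added after the data were seen. Promoter sequences came from RefSeq (GRCm38.p6).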

Additional observations from a re-analysis of the deposited data

How the results depend on the processing

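Depth was lowest in NT replicate 1, and its effect on genes of low level was not tested. Between CD30 and NT, 1432 genes (1032 higher, 400 lower) became 359 (208 and 151) when only the 6 libraries were fitted and 860 (595 and 265) with the 9 libraries of the added fit; lower genes were 673 with DESeq2 and 928 without a filter. With 1 library left out, all calls ran from 608 to 1714, higher genes from 474 to 1214 and lower genes from 134 to 539. Between CD30 and CD0, 828 genes (407 and 421) became 1395 without a filter, and lower genes were 635 with DESeq2, 838 without a filter, 207 with the length and GC offset and 640 with the 6 libraries compared. With 1 library left out these ran from 384 to 563 in all, 199 to 303 higher and 185 to 285 lower. CD0 against NT gave 4732 calls, 2601 with only its 6 libraries, and 3499 to 5114 with 1 left out. CD30 against IR_BMT gave 3597, 4860 with only its 6 libraries, 1247 with the offset, and 1975 to 3526 with 1 left out. Of 85 named genes past the threshold against NT, 41 stayed past it under every alternative, as did 6 of 12 against CD0, and none reversed. The cause of these shifts was not tested. The same replicate numbers gave correlations of deviations of 0.235, 0.089 and 0.357 between CD30 and NT, and different numbers gave -0.28 to 0.096. These values do not settle whether the numbers mark pairs. The main fit did not take them as pairs, and the replicate block gave 910 genes higher and 331 lower.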
